A study of Homo sapiens with 8 samples.

Results

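The 10 genes of the RGS family studied here (RGS2, RGS3, RGS4, RGS5, RGS10, RGS12, RGS14, RGS16, RGS19 and RGS20), chosen as regulators that end Gi signalling, were followed in CFPAC-1 cells with and without an ADRA2A transgene. CFPAC-1 is an established human pancreatic ductal adenocarcinoma line. The genes were picked by symbol from the 58870 genes of the deposited count table, without use of their values in the rule, and each symbol matched 1 row. The list itself was made with earlier results of these data known. All 8 libraries came from CFPAC-1 cells grown in IMDM with serum and antibiotics over 72 h, and the labels list no treatment. The genotype was empty vector in 4 libraries and ADRA2A transgene in the other 4. The promoter of the transgene, the vector and whether the cells were a pool or a clone are not given in the sources used here. The labels do not say that libraries of a group came from separate cultures, so p-values measure the spread between these samples, which may be technical.

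RGS proteins switch off G protein signalling. A receptor such as the alpha-2A adrenergic receptor, the product of ADRA2A, loads Gi with GTP, and the RGS domain binds the active alpha subunit and speeds hydrolysis of that GTP, which lets the alpha and beta-gamma subunits come together again. Members are sorted by sequence into subfamilies: R4 (small proteins, here RGS2, RGS3, RGS4, RGS5 and RGS16), R12 (RGS10, RGS12 and RGS14) and RZ (RGS19 and RGS20). Many RGS transcripts are themselves set by the signals that their proteins limit. RGS2 differs from the others in acting mainly on Gq, and its gene is known as a cAMP-responsive one.

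Library totals lay between 14427040 and 17528910 estimated counts, and the counts of each library were scaled to counts per 1e6 counts (CPM) with TMM factors. ADRA2A had 0 counts in the 4 empty-vector libraries and 112, 142, 154 and 172 counts in ADRA2A replicates 1 to 4, at least 49.1-fold above the 3 counts per library that a count of 0 allows. Of 8 duct carcinoma markers, summed CPM lay between 11983 and 12556 in the empty-vector libraries and between 11929 and 12982 in the ADRA2A libraries. Single markers moved apart within that sum: MUC1 rose from a mean of 279 to 483 CPM, while KRT7 fell from 781 to 579 CPM and CDH1 from 412 to 327 CPM (edgeR adjusted p = 4.76e-12, 2.74e-09 and 1.68e-07). CFTR, 1 of these 8, had between 4 and 20 counts in each library. Because RGS5 is a pericyte marker in tissue, markers of that cell type were read as well: MYH11 and DES had at most 3 and 2 counts in any library, and CSPG4 at most 6. ACTA2 had between 18 and 38.0 counts per library, with means of 1.6 and 1.88 CPM (edgeR adjusted p = 0.513). The summed level of the 5 markers of the list was 35.4 to 39.5 CPM with empty vector and 19.5 to 20.6 CPM with ADRA2A, and most of it came from NOTCH3, a receptor also found on epithelial cells (means of 35.7 and 17.9 CPM). Its part in the RGS5 result was not tested. Summed markers of other cell types were 2.04 to 2.49 against 1.11 to 1.66 CPM for fibroblasts, 2.05 to 2.71 against 2.64 to 3.35 CPM for endothelium and 119 to 132 against 197 to 210.2 CPM for leukocytes, where CD3E was at 0 and LYZ and CD68, also found outside leukocytes, made up nearly all of it. Single endothelial markers went both ways. PECAM1 had means of 0.773 CPM with empty vector and 2.44 CPM with ADRA2A, KDR 1.23 and 0.482, and VWF 0.235 and 0.0323. CDH5 had at most 1 count in any library. In bulk RNA, fewer cells with a transcript and less of it per cell cannot be told apart.

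Of the 10 genes, 9 had enough counts to be tested, and RGS16 did not. With edgeR's quasi-likelihood test and a Benjamini-Hochberg adjusted p-value under 0.05 across the 14785 tested genes, 3 members rose in the ADRA2A cells (RGS2, RGS3 and RGS14) and 3 fell (RGS4, RGS5 and RGS20). RGS10, RGS12 and RGS19 did not pass. The 6 of 9 called made 66.7% of the tested members, beside 42.7% of all tested genes called in either direction, 21.6% higher and 21.1% lower. Non-overlapping groups were seen for 5 of the 9 (55.6%), beside 39.2% of all tested genes. The median log2 fold change of the 9 was -0.08, against 0.00 over all tested genes, and their median absolute log2 fold change was 0.44 against 0.18. No test compared the 9 with other genes. The members were chosen with earlier results of these data known, and the part of that choice in these shares was not tested.

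**Figure D1:**
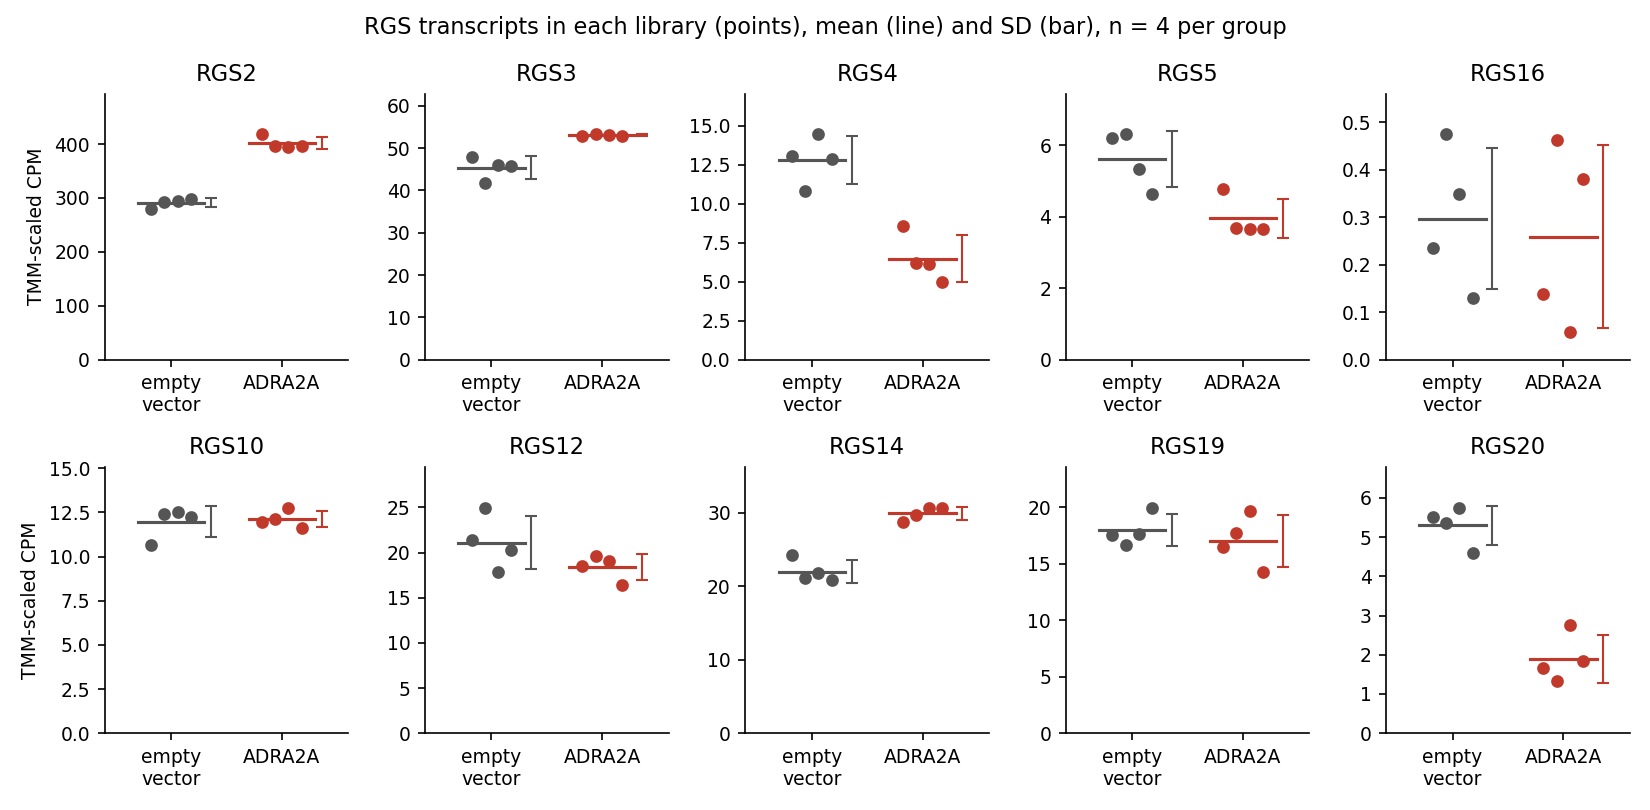
TMM-scaled CPM of each of the 10 RGS genes (vertical axes, linear from 0) in the 4 empty-vector (grey) and 4 ADRA2A (red) libraries, with replicate 1 to 4 from left to right, the group mean as a line and the SD as a bar. RGS2, RGS3 and RGS14 lie higher and RGS4 and RGS20 lower in every ADRA2A library; RGS5 overlaps in 1 library of each group, and RGS16 stays under 0.5 CPM.

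RGS2 (ENSG00000116741.8; GRCh38 chromosome 1, 192809039 to 192812275, plus strand) was by far the most abundant member. It encodes a small R4 protein that acts mainly on Gq. RGS2 had 280.1, 293, 294 and 299 CPM in empty-vector replicates 1 to 4 and 419, 397, 395 and 397 CPM in ADRA2A replicates 1 to 4. Every ADRA2A library lay above every empty-vector library. Means were 291 ± 7.94 and 402 ± 11 CPM (SD, n = 4 each), which is a 1.38-fold rise (95% interval 1.31 to 1.45) and a log2 fold change of 0.46 (standard error 0.03, edgeR adjusted p = 1.07e-09). It rested on between 4315 and 6904 counts per library, more than 97.1% of the tested genes had on average. Among the members it had the smallest p-value, while RGS4, RGS5 and RGS20 had larger absolute log2 fold changes.

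The window around the RGS2 start site is shown because RGS2 carried the largest level and the smallest p-value of the members. It runs from 250 bases before to 50 bases after the start, chr1:192808789-192809088 on the plus strand (RefSeq, GRCh38.p14), and is 69.7% G and C. Capitals mark CGTCA, the reverse complement of TGACG, the core of the cAMP response element, at position 70 of the window counted from its 5′ end.
RGS2 promoter: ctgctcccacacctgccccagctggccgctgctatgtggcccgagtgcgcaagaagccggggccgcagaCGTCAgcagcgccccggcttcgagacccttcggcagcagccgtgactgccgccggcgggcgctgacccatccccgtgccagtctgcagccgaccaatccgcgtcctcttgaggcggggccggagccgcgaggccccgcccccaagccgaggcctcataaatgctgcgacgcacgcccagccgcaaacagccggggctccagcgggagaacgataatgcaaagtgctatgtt
The motifs searched on both strands of such windows were the full cAMP response element TGACGTCA, its core TGACG (which the full element contains), TGAGTCA of AP-1 and CATTCC of TEAD factors. The core was present in 24.6% of all 35116 RefSeq windows of 300 bases, the full element in 1.85%, the AP-1 letters in 4.95% and the TEAD letters in 14.0%. A match is a run of letters and was not tied to binding here. RefSeq windows were found for 9 members, 23 windows in all, and RGS20 had none. The core was in 5 of the 23 windows (21.7%), from RGS2, RGS3, RGS4 and RGS12, the TEAD letters in 1 (4.35%), from RGS5, and the full element and the AP-1 letters in 0. Windows 2 and 3 of RGS4 overlap and hold the same CGTCA, so the windows are not all separate sites.

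RGS3 (ENSG00000138835.22; chromosome 9, 113444731 to 113597743, plus strand), an R4 gene with many transcripts whose long products carry further domains before the RGS domain, rose slightly. It had 48.0, 41.7, 46.1 and 45.7 CPM in the empty-vector replicates and 52.9, 53.3, 53.1 and 52.9 CPM in the ADRA2A replicates. The ADRA2A libraries were close to one another and all lay above the highest empty-vector library. Means were 45.4 ± 2.64 and 53.1 ± 0.203 CPM (SD, n = 4 each), a 1.17-fold rise (95% interval 1.09 to 1.26; edgeR adjusted p = 0.00129). GENCODE lists 31 transcripts of RGS3, and gene-level counts do not show which of them changed. Of the 20 tested genes on each side of RGS3, 16 had a positive and 24 a negative log2 fold change, with a median of -0.11, opposite in sign to RGS3; with 10 genes on each side the median was 0.05.

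RGS4 and RGS5 are R4 genes that lie next to each other on chromosome 1, and both fell. RGS4 (ENSG00000117152.13; 163068775 to 163076802, plus strand) encodes a small protein that acts on Gi and Gq. It had 13.1, 10.8, 14.5 and 12.9 CPM in the empty-vector replicates and 8.58, 6.20, 6.13 and 5.0 CPM in the ADRA2A replicates. The highest ADRA2A library, replicate 1, lay below the lowest empty-vector library, replicate 2. Means were 12.8 ± 1.52 and 6.48 ± 1.51 CPM (SD, n = 4 each), so the level was 1.99-fold lower with the transgene. The log2 fold change was -0.99 (standard error 0.14, edgeR adjusted p = 6.54e-06). In size it exceeded that of 95.1% of the tested genes.

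RGS5 (ENSG00000143248.13; 163111121 to 163321791, minus strand), best known from pericytes and vascular smooth muscle, was scarcer. It had 6.21, 6.31, 5.34 and 4.65 CPM in the empty-vector replicates and 4.78, 3.70, 3.66 and 3.67 CPM in the ADRA2A replicates. Empty-vector replicate 4, the lowest of its group, lay below ADRA2A replicate 1, so the groups overlapped in that 1 pair. Means were 5.63 ± 0.784 and 3.95 ± 0.550 CPM (SD, n = 4 each), 1.43-fold lower with the transgene (log2 fold change -0.51, SE 0.16, with an edgeR adjusted p of 0.0117). RGS5 shares 534 exon bases with a long non-coding RNA on the same strand (AL592435.1, ENSG00000232995.7) and both had counts that were not whole numbers, as when reads are divided between features. That RNA had between 15.9 and 30.3 counts per library, where RGS5 had between 56.0 and 106. With the counts of both summed, an alternative chosen after seeing the annotation, the log2 fold change was -0.44 (edgeR adjusted p = 0.00747).

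The lower coordinates of RGS4 and RGS5 lie 42346 bases apart, with no tested gene between them. Genes around them had medians near 0: of the 20 tested genes on each side of RGS4, RGS5 included, 24 had a positive and 16 a negative log2 fold change, with a median of 0.03. For RGS5, with RGS4 included, the numbers were 25, 15 and 0.04. The next gene beyond RGS5 apart from AL592435.1 was NUF2, a kinetochore gene that overlaps the RGS5 locus on the opposite strand without shared exon bases. NUF2 fell as well (log2 fold change -0.36, SE 0.05, with an edgeR adjusted p of 4.79e-06). The counts are RSEM estimates, made from annotated transcripts, and the use of strand in counting is not given in the sources used here. Any part of shared reads in both falls was not tested.

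The windows of RGS4 and RGS5 are printed together because these neighbours fell together. For RGS4 it is the most upstream of 4 windows that holds a searched motif, chr1:163069004-163069303 on the plus strand, and for RGS5 the most upstream of 2, chr1:163321686-163321985 on the minus strand (RefSeq, GRCh38.p14). Capitals mark CGTCA at position 219 of the RGS4 window and CATTCC at position 46 of the RGS5 window.
RGS4 promoter: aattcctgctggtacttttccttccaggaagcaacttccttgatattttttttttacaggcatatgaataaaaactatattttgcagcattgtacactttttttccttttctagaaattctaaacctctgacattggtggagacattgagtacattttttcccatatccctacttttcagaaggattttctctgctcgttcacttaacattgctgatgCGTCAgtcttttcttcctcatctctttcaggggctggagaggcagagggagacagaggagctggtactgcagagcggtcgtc
RGS5 promoter: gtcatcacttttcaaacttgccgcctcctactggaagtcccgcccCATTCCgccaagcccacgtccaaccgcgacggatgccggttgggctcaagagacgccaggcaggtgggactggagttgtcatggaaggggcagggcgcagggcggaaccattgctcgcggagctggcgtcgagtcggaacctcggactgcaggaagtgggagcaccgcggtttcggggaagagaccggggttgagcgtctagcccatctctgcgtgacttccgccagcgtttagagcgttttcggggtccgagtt
The 2 printed windows have no searched motif in common. They differ in composition, with 40.7% G and C and 4 CG dinucleotides for RGS4 and 63.0% and 28 for RGS5. That contrast depends on the windows chosen. The other RGS5 window had 51% G and C and 1 CG dinucleotide. The other RGS4 windows had 44.7%, 47% and 50.3%, with 8, 8 and 2 CG dinucleotides.

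RGS16 (ENSG00000143333.7; chromosome 1, 182598623 to 182604389, minus strand), another R4 regulator of Gi and Gq, was barely detected. It had 4, 7, 6 and 2 counts in the empty-vector replicates and 2, 7, 1 and 6 counts in the ADRA2A replicates, or 0.297 ± 0.148 and 0.259 ± 0.192 CPM (SD, n = 4 each). The groups overlapped throughout and the gene was below the filter on low counts. With that filter removed, its log2 fold change was -0.20 (standard error 0.71, edgeR adjusted p = 0.870), so no difference was detectable at this depth.

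RGS14 (ENSG00000169220.18; chromosome 5, 177357924 to 177372596, plus strand) was the one R12 gene that rose. Its protein carries, beside the RGS domain, Ras-binding domains and a GoLoco motif, which holds Gi alpha in its GDP-bound form. RGS14 had 24.2, 21.0, 21.7 and 20.8 CPM in the empty-vector replicates and 28.7, 29.6, 30.6 and 30.7 CPM in the ADRA2A replicates, and the groups did not overlap. Means were 22.0 ± 1.57 and 29.9 ± 0.918 CPM (SD, n = 4 each), a 1.36-fold rise (95% interval 1.24 to 1.5; edgeR adjusted p = 1.84e-05). Genes around it tended the same way at a smaller size: of the 20 tested genes on each side, 28 had a positive log2 fold change and 18 were called higher against 3 called lower, with a median of 0.14 where RGS14 had 0.44. Over all tested genes, 21.6% were called higher and 21.1% lower. The part of the surrounding stretch in the RGS14 result was not tested. The RGS14 window, chr5:177357674-177357973 on the plus strand (RefSeq, GRCh38.p14), is shown beside that of RGS2 because both genes rose by a similar fold; it is 59.7% G and C and holds 0 of the searched motifs, so no letters are in capitals.
RGS14 promoter: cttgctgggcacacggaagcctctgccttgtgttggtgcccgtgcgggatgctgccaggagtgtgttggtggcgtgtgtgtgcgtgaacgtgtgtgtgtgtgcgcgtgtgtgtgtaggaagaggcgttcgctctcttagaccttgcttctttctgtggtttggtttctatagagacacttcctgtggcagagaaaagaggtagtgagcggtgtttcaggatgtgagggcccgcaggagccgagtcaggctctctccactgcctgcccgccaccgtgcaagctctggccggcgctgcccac

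RGS12 and RGS10 did not pass the test. RGS12 (ENSG00000159788.19; chromosome 4, 3293021 to 3439913, plus strand), a large protein with PDZ, phosphotyrosine-binding, Ras-binding and GoLoco parts, had 21.4, 25.0, 17.8 and 20.2 CPM in the empty-vector replicates and 18.5, 19.7, 19.0 and 16.4 CPM in the ADRA2A replicates. The groups overlapped, and the log2 fold change was -0.19 (standard error 0.09, edgeR adjusted p = 0.101). Without empty-vector replicate 3, the lowest of its group, the log2 fold change was -0.27 (edgeR adjusted p = 0.0231), and without empty-vector replicate 2, the highest, it was -0.11 (edgeR adjusted p = 0.365). Of the 20 tested genes on each side of RGS12, 28 had a negative log2 fold change, with a median of -0.11; the part of this stretch was not tested. RGS10 (ENSG00000148908.15; chromosome 10, 119499817 to 119542719, minus strand), a short protein that is little more than an RGS domain acting on Gi, had 10.7, 12.4, 12.5 and 12.2 CPM in the empty-vector replicates and 12, 12.1, 12.8 and 11.6 CPM in the ADRA2A replicates. Its means of 12 ± 0.881 and 12.1 ± 0.475 CPM (SD, n = 4 each) lay within 1 SD of each other. The 95% interval of its fold change ran from 0.892 to 1.16 (edgeR adjusted p = 0.867), so a change of the size seen for RGS14 lay outside it.

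RGS20 had the largest fold change of the members. RGS20 (ENSG00000147509.14; chromosome 8, 53851795 to 53959303, plus strand) encodes an RZ protein that acts on Gz and Gi. It had 5.50, 5.36, 5.75 and 4.58 CPM in the empty-vector replicates and 1.66, 1.32, 2.75 and 1.83 CPM in the ADRA2A replicates. All 4 ADRA2A libraries lay below the lowest empty-vector library. Means were 5.30 ± 0.505 and 1.89 ± 0.610 CPM (SD, n = 4 each), 2.77-fold lower with the transgene. The log2 fold change was -1.47 (standard error 0.21, edgeR adjusted p = 9.06e-06). In size it exceeded that of 97.9% of the tested genes. The level was low, between 20 and 99 counts per library and above only 17.9% of the tested genes. The 20 tested genes on each side had a median log2 fold change of 0.02, with 21 positive and 19 negative, and the 10 on each side a median of -0.05.

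RGS19 (ENSG00000171700.14; chromosome 20, 64073181 to 64079988, minus strand), the other RZ member, first found as a partner of Gi alpha 3, did not pass the test. It had 17.6, 16.6, 17.7 and 19.96 CPM in the empty-vector replicates and 16.5, 17.7, 19.6 and 14.2 CPM in the ADRA2A replicates. Empty-vector replicate 4 was the highest and ADRA2A replicate 4 the lowest library, and the groups overlapped. The log2 fold change was -0.08 (standard error 0.09, edgeR adjusted p = 0.553), with a 95% interval of the fold change from 0.828 to 1.09. That interval does not hold the fold of RGS20. The difference between RGS19 and RGS20 was not tested.

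**Figure D2:**
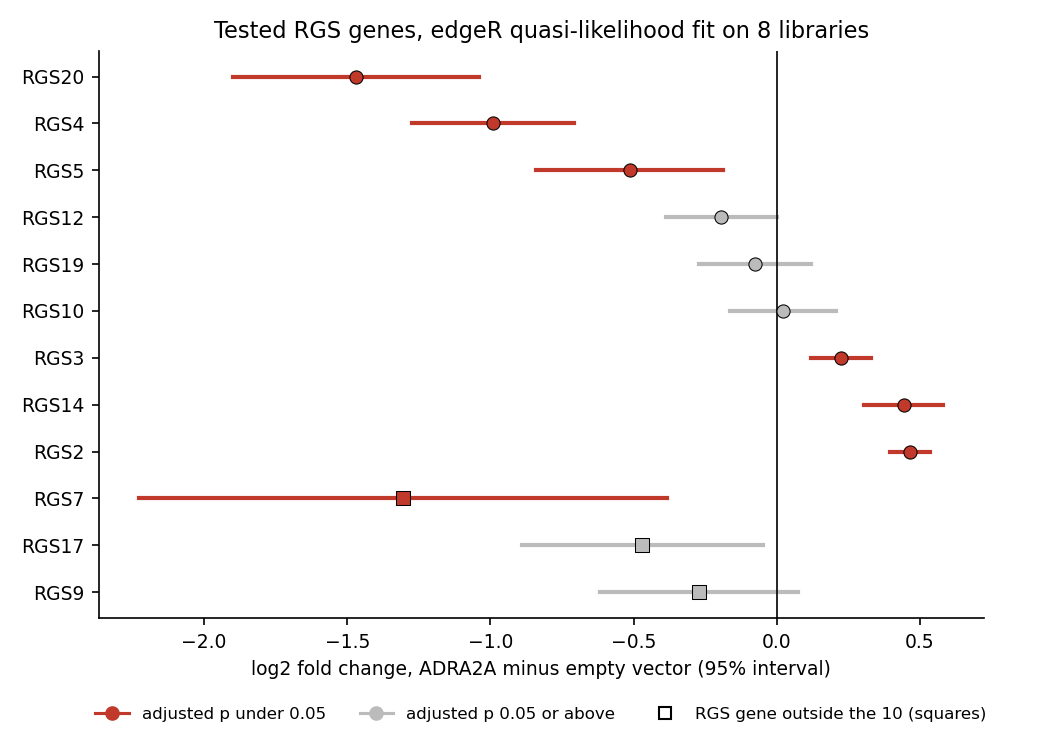
Log2 fold change of each tested RGS gene, ADRA2A minus empty vector (points, with the 95% interval as a line; circles are the 9 tested members, squares RGS7, RGS9 and RGS17). Red genes had an adjusted p under 0.05 and grey genes did not; the members run from -1.47 for RGS20 to 0.46 for RGS2.

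To compare levels between genes, CPM was divided by the length of the union of each gene's exons in kilobases. RGS2 stood at 140 ± 3.80 CPM per kilobase with empty vector and 193 ± 5.29 with ADRA2A (SD, n = 4 each). Next with empty vector were RGS10 at 9.39 ± 0.692 and RGS19 at 8.85 ± 0.699 CPM per kilobase, whose ranges over the libraries overlapped, followed by RGS14 at 5.93 ± 0.425 and RGS3 at 3.45 ± 0.201. RGS4 was at 2.71 ± 0.320, RGS20 at 1.65 ± 0.158 and RGS12 at 1.53 ± 0.216, and the ranges of RGS20 and RGS12 overlapped. RGS5 at 0.850 ± 0.118 and RGS16 at 0.123 ± 0.0615 were lowest. In the ADRA2A cells the order on the same scale was RGS2, RGS10, RGS19, RGS14, RGS3, RGS4, RGS12, RGS5, RGS20 and RGS16. There the ranges of RGS10 and RGS19, of RGS19 and RGS14, of RGS4 and RGS12 and of RGS5 and RGS20 overlapped.

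RGS2 alone made 80.2% ± 0.420 of the summed per-length level of the 10 genes with empty vector and 85.0% ± 0.777 with ADRA2A (SD, n = 4 each). The other 9 summed to 34.5 ± 0.610 and 34.0 ± 1.69 CPM per kilobase, a difference inside the replicate SD, while single genes among them went up or down. RGS10 and RGS19, which were not called, had the highest means of these 9 in both groups. The share of RGS20 in the sum was 0.951% ± 0.103 with empty vector and 0.261% ± 0.0853 with ADRA2A. That of RGS4 was 1.56% ± 0.184 and 0.602% ± 0.125. The summed level of the 10 genes rose from 174 ± 4.08 to 227 ± 5.26 CPM per kilobase, so these shares fell further than the levels of their genes. RGS10, which was not called, went from a share of 5.39% ± 0.301 to 4.20% ± 0.188. With the longest transcript of each gene as its length in place of the exon union, RGS2 made 80.0% ± 0.494 and 84.5% ± 0.722, and RGS3 and RGS12, whose exon unions are long (13152 and 13762 bases), moved up in the order. By that length the other 9 summed to 54.2 ± 0.768 and 54.8 ± 2.33 CPM per kilobase, again a difference inside the replicate SD.

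**Figure D3:**
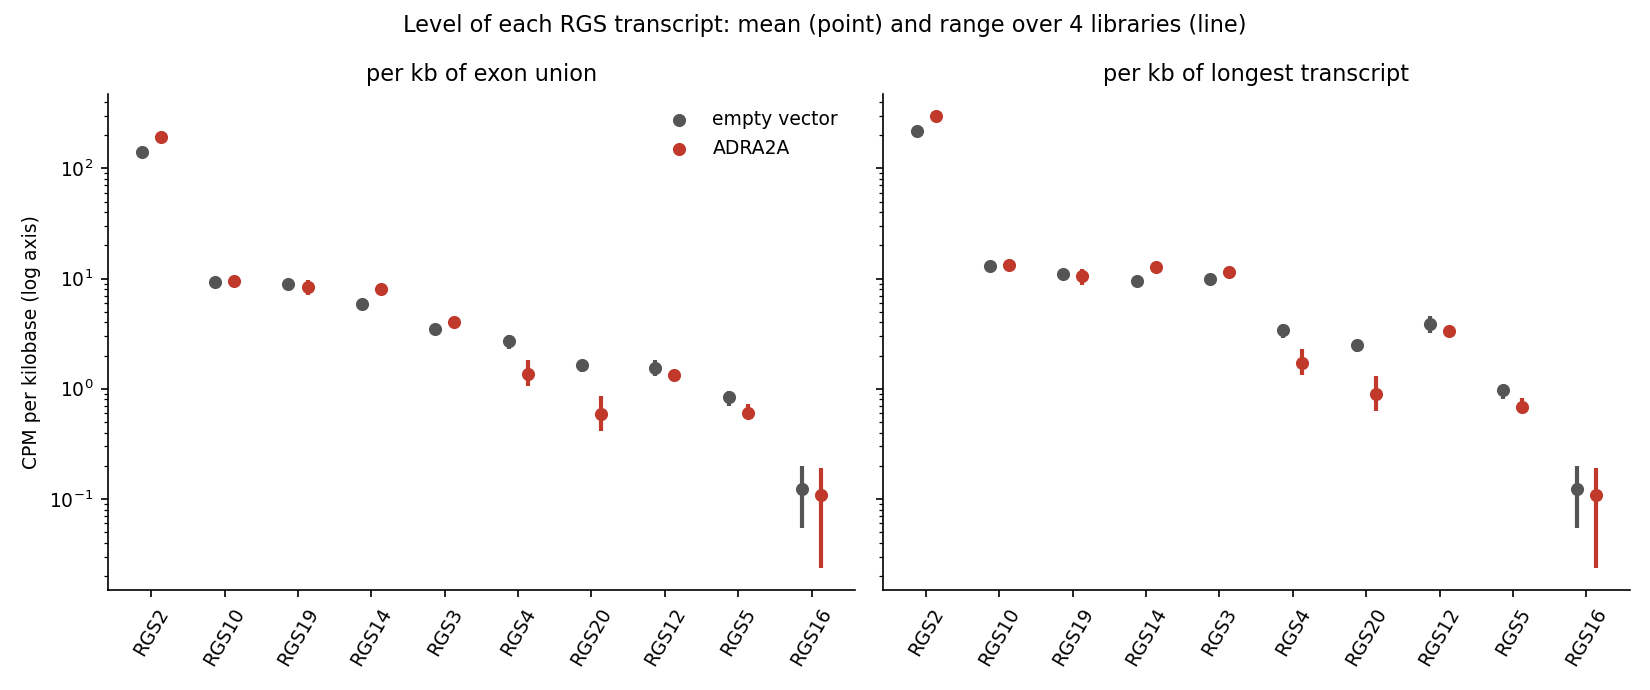
CPM per kilobase (log axis) of the 10 RGS genes, with the exon union as length on the left and the longest transcript on the right; points are means and lines the range over 4 libraries, grey for empty vector and red for ADRA2A. RGS2 lies over 10-fold above every other gene in both panels, and RGS16 is lowest.

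**Figure D4:**
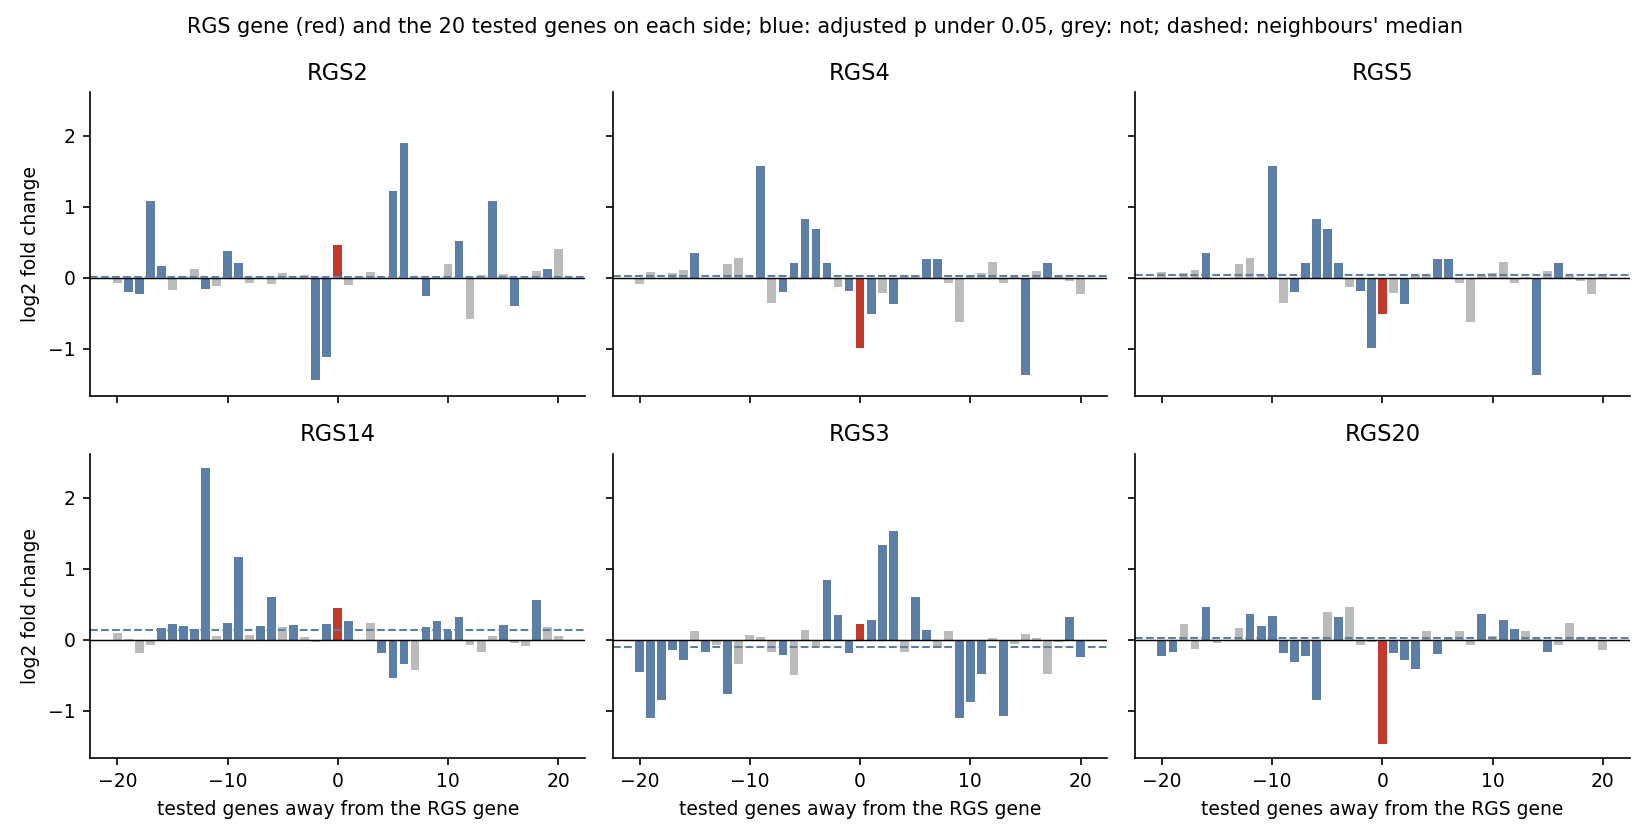
Log2 fold change of the 6 called RGS genes (red) and of the 20 tested genes on each side in chromosomal order; blue bars had an adjusted p under 0.05, grey bars did not, and the dashed line is the neighbours' median. RGS4, RGS5 and RGS20 fell within stretches whose medians lie between 0.02 and 0.04, while RGS14 rose in a stretch with a median of 0.14.

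Among the genes whose pattern over the 8 libraries was most like that of RGS2, by Pearson correlation of log2 CPM over 14054 genes with a mean of at least 1 CPM, were FUCA1 (a lysosomal fucosidase; r = 0.996), KLK11 (a kallikrein protease; r = 0.995) and CA12 (a membrane carbonic anhydrase; r = 0.995). All 3 rose, with log2 fold changes of 0.68, 1.12 and 1.90. For RGS4 they were FBXO32 (a ubiquitin ligase subunit; r = 0.990), HPF1 (a partner of PARP enzymes; r = 0.989) and PGM2 (a phosphopentomutase; r = 0.988), with log2 fold changes of -0.69, -0.38 and -0.39. These correlations are descriptions over 8 libraries in 2 groups, and any gene that differs between the groups takes part of its r from that difference.

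Most of the other RGS genes had few or no counts in these cells. Of 13 further genes with an RGS domain, 5 were tested, 2 fell and 0 rose. The share called was slightly below the 42.7% of all tested genes called in either direction, and the direction of so few calls was not tested. RGS6, RGS8, RGS13, RGS18 and RGS21 had 0 counts in every library, and RGS1, RGS11 and RGS22 had at most 3 in any library. RGS7 (an R7 protein that pairs with G beta 5) went from 1.21 ± 0.473 to 0.480 ± 0.344 CPM (SD, n = 4 each; log2 fold change -1.31, SE 0.44, with an edgeR adjusted p of 0.0221) on between 2 and 27 counts per library, and its groups overlapped. AXIN2, the Wnt feedback scaffold, went from 2.48 ± 0.564 to 1.44 ± 0.250 CPM (SD, n = 4 each; log2 fold change -0.78, SE 0.25, with an edgeR adjusted p of 0.0157). The calls of RGS7 and AXIN2 were both lost without empty-vector replicate 2 (adjusted p = 0.0959 and 0.0658) and without ADRA2A replicate 3 (adjusted p = 0.0806 and 0.0571), and that of RGS7 also without ADRA2A replicate 1 (adjusted p = 0.0770).

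RGS17, an RZ gene like RGS20, had 4.30 ± 0.446 and 3.10 ± 0.979 CPM in the 2 groups (SD, n = 4 each), which gave a log2 fold change of -0.47 (standard error 0.20, edgeR adjusted p = 0.067). Its ADRA2A replicate 4, at 4.55 CPM, stood apart from the other 3 (2.44 to 2.70 CPM), and without it the log2 fold change was -0.71 (edgeR adjusted p = 0.00574). With any other library left out it lay between -0.54 and -0.37 and was not called. RGS17 was also called with limma voom (-0.50, adjusted p = 0.0426) and in edgeR without the low-count filter (-0.47, adjusted p = 0.0476), but not with DESeq2. RGS9, an R7 gene, had a log2 fold change of -0.27 (standard error 0.17, edgeR adjusted p = 0.199), and -0.45 without ADRA2A replicate 1 (edgeR adjusted p = 0.0334) but -0.16 without ADRA2A replicate 3 (edgeR adjusted p = 0.480). AXIN1 had -0.12 (standard error 0.07, edgeR adjusted p = 0.161), and ranged from -0.18 (edgeR adjusted p = 0.0475, without ADRA2A replicate 1) to -0.09 (edgeR adjusted p = 0.374) with 1 library left out.

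Alpha subunits are the substrates of RGS proteins. Of 8 Gi family alpha genes 3 were tested; GNAI1 rose (57.9 ± 1.61 to 65.0 ± 1.70 CPM, SD, n = 4 each; log2 fold change 0.17, SE 0.04, with an edgeR adjusted p of 0.00463). GNAI2 at 153 and 158 CPM and GNAI3 at 178 and 171 CPM did not pass. This made 33.3% of the 3 called, beside 42.7% of all tested genes. GNAO1 had at most 7 counts in any library and GNAZ, the preferred substrate of RGS20, at most 5. All 8 other alpha genes were tested, and 1 rose and 2 fell (37.5% called, again beside 42.7%). GNAS, the Gs alpha gene, had a log2 fold change of -0.13 (edgeR adjusted p = 0.00167) and GNA12 -0.19 (adjusted p = 0.00946). GNAQ, a Gq alpha gene on which RGS2 acts, had 0.15 (adjusted p = 0.0337). The GNAQ call was lost without empty-vector replicate 2 or 3 (adjusted p = 0.108 and 0.0685), without ADRA2A replicate 2 or 4 (adjusted p = 0.0603 and 0.130) and with upper quartile factors (adjusted p = 0.0562).

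Of 17 beta and gamma subunit genes 10 were tested, of which 2 rose and 2 fell. The share called was slightly below the 42.7% of all tested genes called in either direction. GNB4 went from 41.5 ± 2.37 to 25.7 ± 3.03 CPM, GNG11 from 25.3 ± 2.38 to 39.3 ± 2.03 CPM and GNG12 from 155 ± 7.94 to 197 ± 3.39 CPM (SD, n = 4 each). Their log2 fold changes were -0.69, 0.63 and 0.34 (edgeR adjusted p = 2.15e-07, 2.84e-07 and 7.07e-07). GNG2, named after its value was seen, had a log2 fold change of -0.77 (edgeR adjusted p = 8.40e-07). The most abundant beta gene, GNB1, was at 461 and 458 CPM and did not pass (adjusted p = 0.867).

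Of 11 other regulators of the alpha cycle and RGS partners, 8 were tested, 2 rose and 1 fell. That is 37.5% called, beside 42.7% of all tested genes. GPR158, an orphan receptor that holds R7 RGS proteins at the membrane, rose from 6.52 ± 0.488 to 9.79 ± 0.399 CPM (SD, n = 4 each; log2 fold change 0.59, edgeR adjusted p = 1.53e-04). The related GPR179 had 0.21 (adjusted p = 0.0264), and RIC8A, a chaperone of alpha subunits, -0.15 (adjusted p = 0.0237). The GPR179 call was lost with DESeq2 (adjusted p = 0.0660), with no filter (adjusted p = 0.0692) and without empty-vector replicate 2 or ADRA2A replicate 4 (adjusted p = 0.0631 and 0.0504). The RIC8A call was lost without empty-vector replicate 2 or ADRA2A replicate 1 or 4 (adjusted p = 0.0732, 0.0911 and 0.0733). The GoLoco genes GPSM1, GPSM2 and GPSM3 did not pass. Among 7 receptor kinase and arrestin genes, all tested, which end receptor signalling one step earlier, ARRB1 rose (log2 fold change 0.26, edgeR adjusted p = 2.46e-04), ARRB2 rose (0.23, adjusted p = 0.0257) and GRK2 fell (-0.12, adjusted p = 0.0104). The ARRB2 call was lost without empty-vector replicate 3 or 4 or ADRA2A replicate 4 (adjusted p = 0.0864, 0.0890 and 0.0710). In the main fit 42.9% of the 7 kinase and arrestin genes were called, beside 42.7% of all tested genes.

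RGS4, RGS5 and RGS16 proteins are known to be destroyed by the N-degron pathway, in which the first methionine is removed, the exposed cysteine is oxidised and arginylated, and UBR ligases mark the protein. Of 6 genes of that route, all tested, 1 rose and 2 fell. The share called was slightly above the 42.7% of all tested genes called in either direction, and this difference was not tested. UBR1 had a log2 fold change of 0.18 (edgeR adjusted p = 0.00159), METAP1 -0.19 (adjusted p = 5.31e-04) and METAP2 -0.12 (adjusted p = 0.0349). The METAP2 call was lost without empty-vector replicate 3 or 4 or ADRA2A replicate 1 or 4 (adjusted p = 0.12, 0.0800, 0.112 and 0.103). ATE1, the arginyl transferase, had 0.06 (adjusted p = 0.358). Transcript counts say nothing of RGS protein levels.

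Gi lowers cyclic AMP through the adenylyl cyclases. Of 10 cyclase genes 7 were tested, and 4 rose and 1 fell. The calls made 71.4% of the 7, beside 42.7% of all tested genes, and this difference was not tested. ADCY5 went from 4.20 ± 0.925 to 15.6 ± 1.33 CPM and ADCY6 from 67.3 ± 3.78 to 81.0 ± 4.56 CPM (SD, n = 4 each), with log2 fold changes of 1.90 and 0.27 (edgeR adjusted p = 4.38e-10 and 2.93e-04). Both are forms that Gi inhibits, but the 10 genes were not sorted by that trait here, so it describes no class. ADCY4 had 1.35 (adjusted p = 3.16e-04) and ADCY9 0.30 (adjusted p = 0.00459). The lower gene, ADCY1, had between 6 and 21 counts per library and a log2 fold change of -0.93 (adjusted p = 0.0276); its call was lost with DESeq2, with the low-count filter removed and without any 1 of 5 libraries (empty-vector replicates 1, 2 and 4, ADRA2A replicates 2 and 4), and then 0 cyclases were lower.

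**Figure D5:**
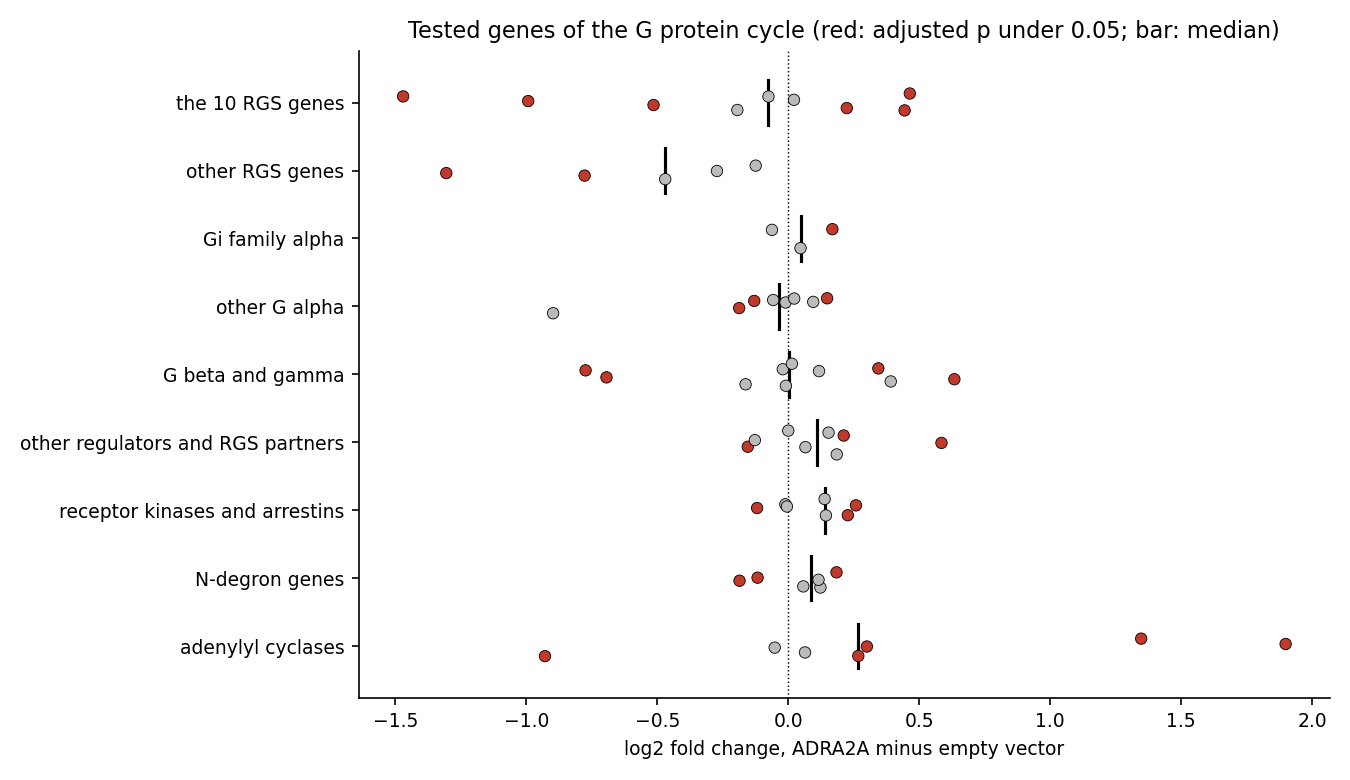
Log2 fold change of every tested gene in the 10 RGS genes and in 8 lists of the G protein cycle (points; red with an adjusted p under 0.05, grey without; the bar is the median of the list). The medians lie between -0.47 for the other RGS genes and 0.27 for the adenylyl cyclases, and the RGS members spread from -1.47 to 0.46.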

How the data were processed

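RNA sequencing of 8 CFPAC-1 samples was used. The values the authors deposited are estimated counts for each gene in 1 table, not scaled between samples; per the submitters' processing notes cutadapt, STAR, RSEM and DESeq2 and the build hg38 were used, with no versions or order. The annotation release and the use of strand are not given in the sources used here. All 8 columns were matched by title and 0 were left over. Estimated counts were rounded, filtered with filterByExpr (14785 of 58870 genes) and TMM-scaled, and edgeR 4.0.16 (R 4.3.3) fitted the group on all 8 libraries; SE is the absolute log2 fold change over the square root of F. Scripts were tested on simulated data. Alternatives were DESeq2 1.42.0, limma 3.58.1 voom, RLE or upper quartile factors, no filter, a mean of at least 50 counts, a block for the replicate number, and each library left out. Positions and lengths are from GENCODE 44 on GRCh38 (99.4% of genes matched), promoter windows from RefSeq. Named were all members, ADRA2A, every other tested RGS gene, 3 genes per list by p-value and for likeness 3 genes for each of the 2 members with the smallest p-values (RGS2 and RGS4); others were chosen after their values were seen. Members and lists were chosen with earlier results of these data known.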

Additional observations from a re-analysis of the deposited data

Results flagged for a closer look

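In 6 of 85 sets of 4 libraries 1 library stood apart from the other 3 by Dixon's 95% limit, which chance passes in about 1 set in 20. Among the members, ADRA2A replicate 1 had the highest RGS2 level of its group, 418.5 CPM where the other 3 lay between 395.3 and 397.3. The same library had the highest RGS5 level, 4.78 CPM where the other 3 lay between 3.66 and 3.70. Empty-vector replicate 1 had the lowest RGS10 level, 10.7 CPM against 12.2 to 12.5. Outside the members, ADRA2A replicate 4 had the highest RGS17 level (4.55 CPM against 2.44 to 2.70). Empty-vector replicate 4 had the highest ARRB1 level (44.6 CPM against 41.7 to 42.0), and empty-vector replicate 3 the lowest ADCY6 level (61.6 CPM against 68.9 to 69.7).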

How the results depend on the processing

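The counts of 3 members higher and 3 lower held under DESeq2, limma voom, RLE or upper quartile factors, no filter, a mean of at least 50 counts and the replicate block; with 1 library left out, 3 were higher and 3 to 4 lower. RGS12 was the added call, at -0.27 without empty-vector replicate 3, in a range of -0.27 to -0.11. RGS10 changed sign without empty-vector replicate 1 (-0.0320) or ADRA2A replicate 3 (-0.00469), in a range of -0.0320 to 0.0467, and RGS19 without ADRA2A replicate 4 (0.00288), in a range of -0.16 to 0.00; none of these was called. With 1 library left out, counts ranged from 0 to 3 for other RGS genes lower, 0 to 1 for other alpha genes higher, 1 to 3 higher and 0 to 1 lower for other regulators, 1 to 2 higher for kinases and arrestins, 1 to 2 in each direction for N-degron genes and 0 to 1 for cyclases lower. A mean of at least 50 counts left 0 other RGS genes lower and 0 cyclases lower, through fewer genes tested. DESeq2 and no filter each left 0 cyclases lower and 1 other regulator higher, and upper quartile factors left 0 other alpha genes higher and 2 other regulators lower; the cause was not tested. The replicate block gave 3247 genes higher and 3153 lower where 3195 and 3119 were found without it, with 2 other regulators lower and 2 N-degron genes higher. Deviations of libraries with the same number correlated at -0.02, -0.04, 0.07 and -0.02, and those with different numbers at -0.07 to 0.11. No pairing by number was seen, though a weak one could be missed. By longest transcript, ranks with empty vector were 4 for RGS3, 5 for RGS14, 6 for RGS12, 7 for RGS4 and 8 for RGS20, and with ADRA2A 3 for RGS14, 4 for RGS3, 5 for RGS19, 6 for RGS12, 7 for RGS4, 8 for RGS20 and 9 for RGS5. With 10 genes on each side, neighbours' medians were 0.0532 for RGS3, -0.10 for RGS12, 0.18 for RGS14, 0.0708 for RGS16 and -0.0541 for RGS20. With 40 they were -0.0534 for RGS3, 0.0717 for RGS4, -0.0365 for RGS10 and -0.15 for RGS12. Depth limits RGS16 most, at 1 to 7 counts per library.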

Other observations

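The tested genes nearest before RGS2 on chromosome 1, named after their values were seen, were PLA2G4A and PTGS2, which encode cytosolic phospholipase A2 and cyclooxygenase-2, enzymes of prostaglandin synthesis. Both fell while RGS2 rose. The log2 fold change of PTGS2 was -1.44 ± 0.09 (SE; edgeR adjusted p = 1.33e-10) and that of PLA2G4A -1.12 ± 0.15 (SE; edgeR adjusted p = 3.77e-06). Their lower coordinates lie 6137248 and 5980090 bases from that of RGS2. The tested genes nearest after RGS2, UCHL5 and RO60, lie closer, at 203211 and 250415 bases, and did not pass. Their log2 fold changes were -0.11 and 0.02 (edgeR adjusted p = 0.0684 and 0.816). Of the 20 tested genes on each side of RGS2, 22 had a positive and 18 a negative log2 fold change, with a median of 0.01.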
